A study of Mus musculus with 16 samples.

Results

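The 10 genes examined here were Vegfa, Vegfb, Vegfc, Pdgfa, Pdgfb, Pdgfc, Hbegf, Thbs1, Fn1 and Ednrb. They encode secreted factors, matrix proteins and a receptor through which macrophages can act on blood vessels. A gene was taken where the annotation of a probe set, the group of short probes that reads 1 transcript, gave exactly that symbol and no other. All 10 of 10 listed genes were measured, by 21 probe sets, among 18194 genes and 34958 probe sets with a single symbol. The rule reads symbols and no measured value.

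RNA of peritoneal cells labelled as tumour-associated macrophages (TAMs) from female C57BL/6N mice was hybridised to 16 Affymetrix mouse arrays. Every mouse, control or RbpjiΔEC, received 1 mg of tamoxifen by mouth at 8 to 12 weeks of age and, 3 weeks later, an injection of ID8-luc cells, a luciferase-marked mouse ovarian cancer line, into the peritoneal cavity, where tumours grew for 4 weeks. In RbpjiΔEC mice the gene Rbpj, whose product carries Notch signals to DNA, was deleted in endothelial cells by an inducible system, and the labels do not name the Cre driver or say what the control mice carried. CD45+ CD11b+ F4/80+ cells washed from the cavity were sorted by the surface receptor CCR2, known from monocytes that enter inflamed tissue, which gave 4 groups of 4 arrays: CCR2+ control, CCR2+ RbpjiΔEC, CCR2- control and CCR2- RbpjiΔEC. Whether each array stands for its own animal, for a pool or for a repeat is not stated, so p-values measure the spread between these arrays, which may be technical.

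VEGF proteins act on receptor tyrosine kinases of endothelial cells. VEGF-A drives the sprouting of blood vessels and is induced by low oxygen, VEGF-B binds VEGFR1 and VEGF-C acts mainly on lymphatic vessels through VEGFR3. PDGF proteins recruit pericytes and fibroblasts, and HB-EGF is a membrane-anchored ligand of the EGF receptor family. Thrombospondin-1, the product of Thbs1, restrains vessel growth through CD36 and CD47, fibronectin, the product of Fn1, is a matrix ligand of integrins, and Ednrb encodes a receptor for endothelins, peptides that control vessel tone. Tumour macrophages are known as a source of several of these factors.

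Promoter windows of RefSeq (build GRCm38.p6, 250 bases before to 50 after a transcript start) were available for 6 of the 10 genes: Vegfa, Vegfb, Vegfc, Pdgfa, Pdgfc and Ednrb. Those of Ednrb and Pdgfa are shown because both genes differed between the sort labels in both genotypes, and those of Vegfa because it is the best known vessel growth factor of the group and did not pass the test. Motifs were searched on both strands and are marked by capitals. The letters ACGTG form the core of hypoxia elements, for which the variant with a first G, that is GCGTG, was searched too. The motif AGATAA is one form of the site of the zinc finger family that includes Gata6. The motif TGGGAA is the core of RBPJ sites, and TGANTCA is the site of the factor AP-1. None of the marked matches overlaps another. The Ednrb window lies at chr14:103843652-103843951 on the minus strand, the Pdgfa windows at chr5:138994232-138994531 and chr5:138994895-138995194 (minus), and the Vegfa windows at chr17:46025114-46025413 and chr17:46032328-46032627 (minus). The Vegfa gene spans 46016993 to 46032377, so its window 1 lies inside the gene and only window 2 holds the start at the end of the gene. The Ednrb window and both Pdgfa windows also lie inside the spans of their genes (103814615 to 103844508 and 138976014 to 139000792). All are written 5′ to 3′ in the direction of the gene.
Ednrb: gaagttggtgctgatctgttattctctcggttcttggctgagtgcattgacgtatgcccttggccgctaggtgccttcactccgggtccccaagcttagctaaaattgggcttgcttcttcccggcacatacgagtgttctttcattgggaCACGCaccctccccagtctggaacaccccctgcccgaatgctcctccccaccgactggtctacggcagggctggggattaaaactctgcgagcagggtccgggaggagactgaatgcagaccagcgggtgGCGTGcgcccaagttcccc
Pdgfa, window 1: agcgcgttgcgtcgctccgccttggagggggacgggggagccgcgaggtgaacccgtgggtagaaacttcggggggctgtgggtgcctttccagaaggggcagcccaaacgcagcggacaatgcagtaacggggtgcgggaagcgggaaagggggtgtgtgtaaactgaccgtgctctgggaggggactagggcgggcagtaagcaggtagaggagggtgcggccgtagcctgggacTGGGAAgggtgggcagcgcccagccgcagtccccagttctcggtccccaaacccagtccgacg
Pdgfa, window 2: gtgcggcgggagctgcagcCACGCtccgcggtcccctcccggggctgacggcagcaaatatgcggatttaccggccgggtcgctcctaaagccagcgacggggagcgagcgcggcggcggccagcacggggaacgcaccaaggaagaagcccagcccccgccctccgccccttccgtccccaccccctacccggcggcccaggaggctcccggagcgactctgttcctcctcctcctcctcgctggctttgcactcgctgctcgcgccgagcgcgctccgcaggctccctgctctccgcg
Vegfa, window 1: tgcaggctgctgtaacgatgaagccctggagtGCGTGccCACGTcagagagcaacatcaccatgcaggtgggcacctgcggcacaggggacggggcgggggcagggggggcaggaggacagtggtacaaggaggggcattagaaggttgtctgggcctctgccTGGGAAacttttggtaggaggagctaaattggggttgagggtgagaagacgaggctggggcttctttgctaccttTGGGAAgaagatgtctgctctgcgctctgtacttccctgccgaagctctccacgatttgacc
Vegfa, window 2: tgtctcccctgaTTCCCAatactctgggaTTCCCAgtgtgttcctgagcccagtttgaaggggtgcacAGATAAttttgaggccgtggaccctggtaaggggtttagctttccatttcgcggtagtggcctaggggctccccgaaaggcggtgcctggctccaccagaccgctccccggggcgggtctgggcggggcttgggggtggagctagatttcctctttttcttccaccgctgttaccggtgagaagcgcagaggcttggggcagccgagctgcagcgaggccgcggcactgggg

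The Ednrb window held GCGTG at -99 on the opposite strand and at 32 on its own strand, counting the leftmost base of a match from the transcript start, which is 1. In Vegfa, window 1, which lies inside the gene, held ACGTG at -211, GCGTG at -218 and TGGGAA at -87 and -12. Its window 2 held AGATAA at -182 and TGGGAA at -238 and -221. Pdgfa held TGGGAA at -13 in window 1 and GCGTG at -231 in window 2. Of all 32851 promoter windows in the table, 19.6% held ACGTG, 32.4% GCGTG, 11.2% AGATAA, 7.8% TGANTCA and 25.6% TGGGAA, so none of these motifs is rare. The windows of Vegfc and Pdgfc, 2 genes, held none of the motifs. A match describes these letters and does not show binding.

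Levels are log2 units of quantile-normalized intensity, and the level of 1 probe set cannot be set against that of another. As a measure of background, the bacterial trp control probes ran from 6.03 to 6.72, and probes of Y-linked genes, absent from female mice, read 5.96 to 7.06. The names CCR2+ arrays and CCR2- arrays below are those of the labels only, since the RNA went against them in part. Ccr2 read 6.87, 9.27, 8.36 and 7.46 in the CCR2+ control arrays and 11.51, 9.02, 9.53 and 9.88 in the CCR2- control arrays. Its mean was thus lower under the CCR2+ label (7.99 ± 1.05 against 9.99 ± 1.08, SD, n = 4 each), with overlap, and so it was in RbpjiΔEC mice (7.69 against 8.94). Adgre1, which encodes F4/80, averaged 13.25 in CCR2+ and 9.21 in CCR2- control arrays, and Itgam, which encodes CD11b, 12.71 and 9.46, although both define the gate of both labels. Ptprc, which encodes CD45, averaged 12.76 and 13.10. All 18 measured genes of large peritoneal macrophages passed as higher and all 12 measured B cell genes as lower in the CCR2+ arrays, in both genotypes, with mean levels of 12.81 to 12.93 against 7.44 to 8.04 and of 6.97 to 7.23 against 12.17 to 12.34. Of all genes, 40.8% passed between labels in control and 39.1% in RbpjiΔEC mice, and both lists were chosen with earlier results of these data known. Rbpj averaged 11.36 and 11.43 in the CCR2+ and 10.44 and 10.35 in the CCR2- arrays (control and RbpjiΔEC), and as the deletion is endothelial it does not check the labels. The deposited columns also differed in kind by label: mean intensities were 821 to 827 in the CCR2+ and 481 to 762 in the CCR2- arrays. A difference between labels below can therefore not be told apart from one in cell mixture or in how the columns were made, and in bulk RNA fewer cells of a type cannot be told apart from less RNA per cell.

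Between the labels, 3 of the 10 genes differed by more than 3 log2 units in both genotypes: Thbs1, Fn1 and Ednrb, all high in the CCR2+ arrays. Pdgfa passed too, with a difference under 1. The VEGF genes, Pdgfc and Hbegf did not pass in control mice, and the 6 genes that failed there differed by at most 0.45. In control mice the 4 higher genes compare with 0 lower and 6 not passing (limma adjusted p under 0.05), on a background of 40.8% of all genes passing, 19.4% as higher and 21.4% as lower. In RbpjiΔEC mice 5 were higher, 1 was lower and 4 did not pass, on a background of 39.1%, with 18.1% higher and 21.0% lower. The arrays of the labels did not overlap for 4 genes in control and 5 in RbpjiΔEC mice, against 37.4% and 38.2% of all genes. In control mice the share of the 10 genes that passed or did not overlap thus lay close to the background. Over all genes, quantile normalization gave 3532 higher and 3891 lower in control and 3290 and 3817 in RbpjiΔEC mice. Median centring gave 4390 and 2614, and 3518 and 2853, and no further normalization gave 4584 and 1730, and 5689 and 1197, so the balance of directions depends on the scaling. The median difference of the 10 genes was 0.23 in control and 0.21 in RbpjiΔEC mice, against -0.03 over all genes in each.

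**Figure D1:**
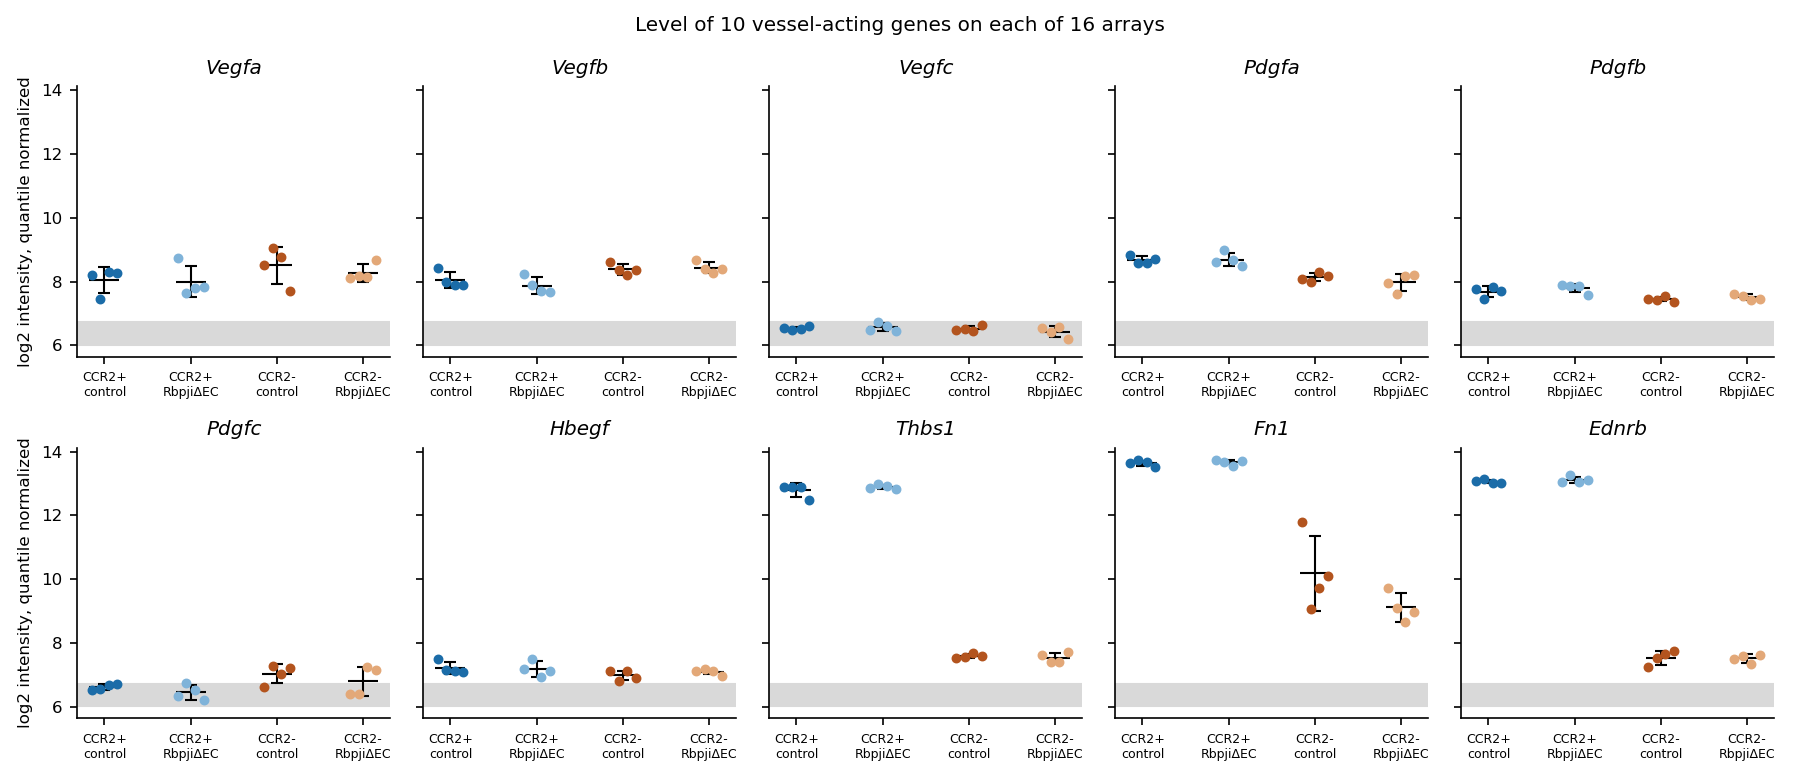
Level of the 10 genes on each of the 16 arrays, in log2 units of quantile-normalized intensity, with group means and SDs (n = 4) as bars, and the range of the bacterial trp control probes in grey. Thbs1, Fn1 and Ednrb stand between 12.48 and 13.73 in all CCR2+ arrays and lower in all CCR2- arrays, while Vegfc lies in or next to the grey band in all 4 groups.

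Vegfa read 8.20, 7.44, 8.31 and 8.26 in the CCR2+ control arrays and 8.52, 9.04, 8.77 and 7.70 in the CCR2- control arrays. In RbpjiΔEC mice the CCR2+ arrays read 8.73, 7.65, 7.79 and 7.84 and the CCR2- arrays 8.11, 8.16, 8.14 and 8.67. The groups overlapped in both genotypes, with 1 array of each group away from its other 3. The difference between labels was -0.45 (SE 0.28, limma adjusted p = 0.227) in control and -0.26 (SE 0.28, adjusted p = 0.509) in RbpjiΔEC mice, with 95% intervals of -1.06 to 0.15 and -0.87 to 0.34. Without CCR2- control 4 the difference in control mice was -0.73 and passed (limma adjusted p = 0.0336). Over all single arrays left out it ran from -0.73 to -0.25, and it passed in 1 of 25 alternative settings. The other Vegfa probe set gave 0.30 and 0.20, the opposite sign, at levels near the trp controls (group means 6.26 to 6.68), and did not pass.

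Vegfb read 8.42, 8.00, 7.88 and 7.89 in the CCR2+ control arrays and 8.60, 8.35, 8.20 and 8.36 in the CCR2- control arrays, a difference of -0.33 (SE 0.15, limma adjusted p = 0.0845). In RbpjiΔEC mice it read 8.23, 7.90, 7.69 and 7.66 against 8.68, 8.40, 8.28 and 8.39, and here it was lower in the CCR2+ arrays by a difference of -0.57 (SE 0.15, adjusted p = 0.00487), with no overlap. Array 1 was the highest of its group in all 4 groups. Without CCR2+ control 1 the difference in control mice was -0.45 and passed (limma adjusted p = 0.0167). Over all single arrays left out it ran there from -0.45 to -0.25, and it passed in 2 of 25 alternative settings. With no further normalization the difference in RbpjiΔEC mice was -0.23 and did not pass (limma adjusted p = 0.357). Whether the 2 genotypes differ in this was tested as an interaction, which gave -0.24 (SE 0.21, adjusted p = 0.999).

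Vegfc could not be told from background. Its standing probe set, the one with the highest mean, averaged 6.54, 6.57, 6.52 and 6.43 in CCR2+ control, CCR2+ RbpjiΔEC, CCR2- control and CCR2- RbpjiΔEC arrays, each within the range of the trp controls. The other 2 probe sets averaged 6.02 to 6.29, below the highest mean of a trp control in all 4 groups. Vegfc differed between labels by 0.02 (SE 0.09) and 0.14 (SE 0.09), with limma adjusted p of 0.888 and 0.253. These arrays set no lower limit on its level.

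Pdgfa, the A chain of PDGF, was higher in the CCR2+ arrays. It read 8.83, 8.59, 8.57 and 8.70 in CCR2+ control against 8.09, 8.00, 8.29 and 8.17 in CCR2- control arrays, with no overlap, a difference of 0.53 (SE 0.13, limma adjusted p = 0.00369), or 1.45-fold. In RbpjiΔEC mice it read 8.61, 8.99, 8.67 and 8.50 against 7.95, 7.61, 8.16 and 8.21, a difference of 0.71 (SE 0.13, adjusted p = 0.000347), or 1.64-fold. The other Pdgfa probe set differed in the same direction (adjusted p = 7.66e-06 and 1.7e-05), by 3.04-fold and 2.83-fold, which are understated since its CCR2- means of 6.36 and 6.37 were no higher than the trp controls.

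Pdgfb, the B chain that draws pericytes to new vessels, gave no uniform answer. It read 7.78, 7.44, 7.82 and 7.70 against 7.47, 7.43, 7.54 and 7.37 in control arrays, overlapping, and differed by 0.23 (SE 0.10, limma adjusted p = 0.0708). Without CCR2+ control 2 the difference was 0.31 and passed (limma adjusted p = 0.0136). Over all single arrays left out it ran from 0.18 to 0.31, and it passed in 1 of 25 alternative settings. In RbpjiΔEC arrays it read 7.90, 7.87, 7.85 and 7.59 against 7.62, 7.55, 7.42 and 7.45 and passed at 0.29 (SE 0.10, adjusted p = 0.0244), although the arrays overlapped. Its other probe set went the opposite way, by -0.21 and -0.29 (adjusted p = 0.239 and 0.104), and the mean of both probe sets differed by 0.00 in RbpjiΔEC mice. The call was also lost without any 1 of 5 arrays: CCR2+ RbpjiΔEC 1, 2 or 3 or CCR2- RbpjiΔEC 3 or 4, with differences of 0.26 to 0.28.

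Pdgfc, a PDGF that is cut to its active form outside the cell, averaged 6.63 ± 0.09 and 7.04 ± 0.30 in CCR2+ and CCR2- control arrays (SD, n = 4) and 6.46 ± 0.23 and 6.80 ± 0.46 in RbpjiΔEC arrays (n = 4). The differences of -0.40 (SE 0.19) and -0.35 (SE 0.19) did not pass (limma adjusted p = 0.113 and 0.181). Without CCR2- control 1, at 6.62 the lowest of its group, the difference in control mice was -0.54 and passed (limma adjusted p = 0.0386). Over all single arrays left out it ran from -0.54 to -0.32, and it passed in 2 of 24 alternative settings. The second Pdgfc probe set was lower in the CCR2+ RbpjiΔEC arrays by a difference of -0.49 (adjusted p = 0.0189), where their mean of 6.40 was no higher than the trp controls, and by -0.24 (adjusted p = 0.234) in control mice.

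Hbegf depended on the probe set. The standing one read 7.51, 7.17, 7.13 and 7.10 against 7.12, 6.82, 7.13 and 6.91 in CCR2+ and CCR2- control arrays, which overlapped, and differed by 0.23 (SE 0.12, limma adjusted p = 0.152) in control and 0.07 (SE 0.12, adjusted p = 0.691) in RbpjiΔEC mice. The other Hbegf probe set, whose mean over all arrays was lower, read 7.61, 7.44, 7.17 and 7.31 against 6.81, 6.59, 6.82 and 6.91, with no overlap. On this probe set Hbegf passed in both genotypes, with differences of 0.60 (SE 0.17, adjusted p = 0.00835) and 0.66 (SE 0.17, adjusted p = 0.00498). Its group means were 6.78 to 7.49, so the group means of both readings lay within about 1 log2 unit of the highest trp value.

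Thbs1 was among the largest of these differences. It read 12.90, 12.88, 12.90 and 12.48 in the CCR2+ control arrays and 7.54, 7.56, 7.70 and 7.60 in the CCR2- control arrays. In RbpjiΔEC mice it read 12.86, 12.97, 12.91 and 12.84 against 7.64, 7.41, 7.42 and 7.71. No array of one label came near the other, and the spread within a group was at most 0.21 (SD). The difference was 5.19 (SE 0.10, limma adjusted p = 8.58e-16), or 36.4-fold (95% interval 31.4 to 42.3), in control and 5.35 (SE 0.10, adjusted p = 4.79e-16), or 40.9-fold (35.2 to 47.5), in RbpjiΔEC mice. The second Thbs1 probe set differed by 5.75 and 5.93, and its CCR2- control arrays all read 6.57 after normalization, at the level of the trp controls, and a difference from such a level is understated.

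Fn1 was high and tightly grouped in the CCR2+ arrays and spread out in the CCR2- arrays. It read 13.65, 13.72, 13.66 and 13.52 in CCR2+ control and 13.73, 13.68, 13.56 and 13.69 in CCR2+ RbpjiΔEC arrays. In the CCR2- arrays it read 11.79, 9.08, 9.72 and 10.11 in control and 9.73, 9.11, 8.67 and 8.96 in RbpjiΔEC mice. The labels did not overlap in either genotype, and the SD was 1.16 in the CCR2- control group against 0.08 in the CCR2+ control group (n = 4 each). The difference was 3.46 (SE 0.39, limma adjusted p = 1.57e-06), or 11.0-fold (95% interval 6.22 to 19.4), in control mice. In RbpjiΔEC mice it was 4.55 (SE 0.39, limma adjusted p = 5.55e-08), or 23.4-fold (13.3 to 41.4). These SEs, p-values and intervals rest on 1 spread shared by all 4 groups and do not measure that of the CCR2- arrays alone. The second Fn1 probe set differed by 4.39 (SE 0.25) and 5.06 (SE 0.25), with CCR2- means of 6.57 and 6.16 that were no higher than the trp controls.

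Ednrb read 13.08, 13.14, 13.02 and 13.02 in CCR2+ control and 13.03, 13.26, 13.06 and 13.10 in CCR2+ RbpjiΔEC arrays, and 7.24, 7.52, 7.67 and 7.74 in CCR2- control and 7.51, 7.59, 7.34 and 7.63 in CCR2- RbpjiΔEC arrays. On the standing probe sets it had the largest difference of the 10 genes in both genotypes, although the second Thbs1 probe set differed by more. The difference was 5.52 (SE 0.10, limma adjusted p = 4.36e-16), or 46.0-fold (95% interval 39.5 to 53.5), and 5.60 (SE 0.10, adjusted p = 3.54e-16), or 48.4-fold (41.5 to 56.3). All 3 Ednrb probe sets went the same way, with differences of 5.21 to 5.98 in control and 5.11 to 6.39 in RbpjiΔEC mice, and none overlapped. The direction did not depend on which probe set was read.

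Marker lists of other cell types were read in the same arrays, although the stated gate should remove cells without CD45, CD11b and F4/80, such as endothelial, fibroblast, tumour and T cells and platelets. Their counts are to be read against the 40.8% and 39.1% of all genes that passed between labels in control and RbpjiΔEC mice. The mean level of 8 platelet and megakaryocyte genes, cells that store thrombospondin-1, was 7.22 to 7.46 in the CCR2+ and 6.96 to 7.22 in the CCR2- arrays, with 3 genes higher and 1 lower between the labels in control mice. The mean level of 8 fibroblast genes was 7.07 to 7.40 in the CCR2+ and 7.17 to 7.56 in the CCR2- arrays, and none passed in control mice. For 10 endothelial genes it was 6.84 to 6.97 and 7.37 to 7.50, with 0 higher and 1 lower in control and 3 lower in RbpjiΔEC mice. The 10 tumour epithelial and mesothelial genes averaged 7.02 to 7.74 in the CCR2+ and 7.35 to 8.06 in the CCR2- arrays (1 higher and 3 lower in each genotype). Dendritic cell genes, 7 measured, averaged 7.58 to 7.84 and 9.09 to 9.63 (6 lower in control and 4 in RbpjiΔEC mice), and 9 monocyte and small peritoneal macrophage genes, Fn1 left out, 8.57 to 9.12 and 8.52 to 10.03 (1 higher, and 5 and 3 lower). Neutrophil genes, 9 measured, averaged 7.39 to 8.56 and 6.87 to 8.99 (1 higher in each genotype), and 10 T and NK cell genes 6.82 to 6.96 and at most 7.30 (1 higher and 2 lower in control, 0 and 3 in RbpjiΔEC mice). The B cell genes given above averaged 12.17 to 12.34 in the CCR2- arrays under the same gate. The part of these lists and of the B cell genes in the label differences was not tested.

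**Figure D2:**
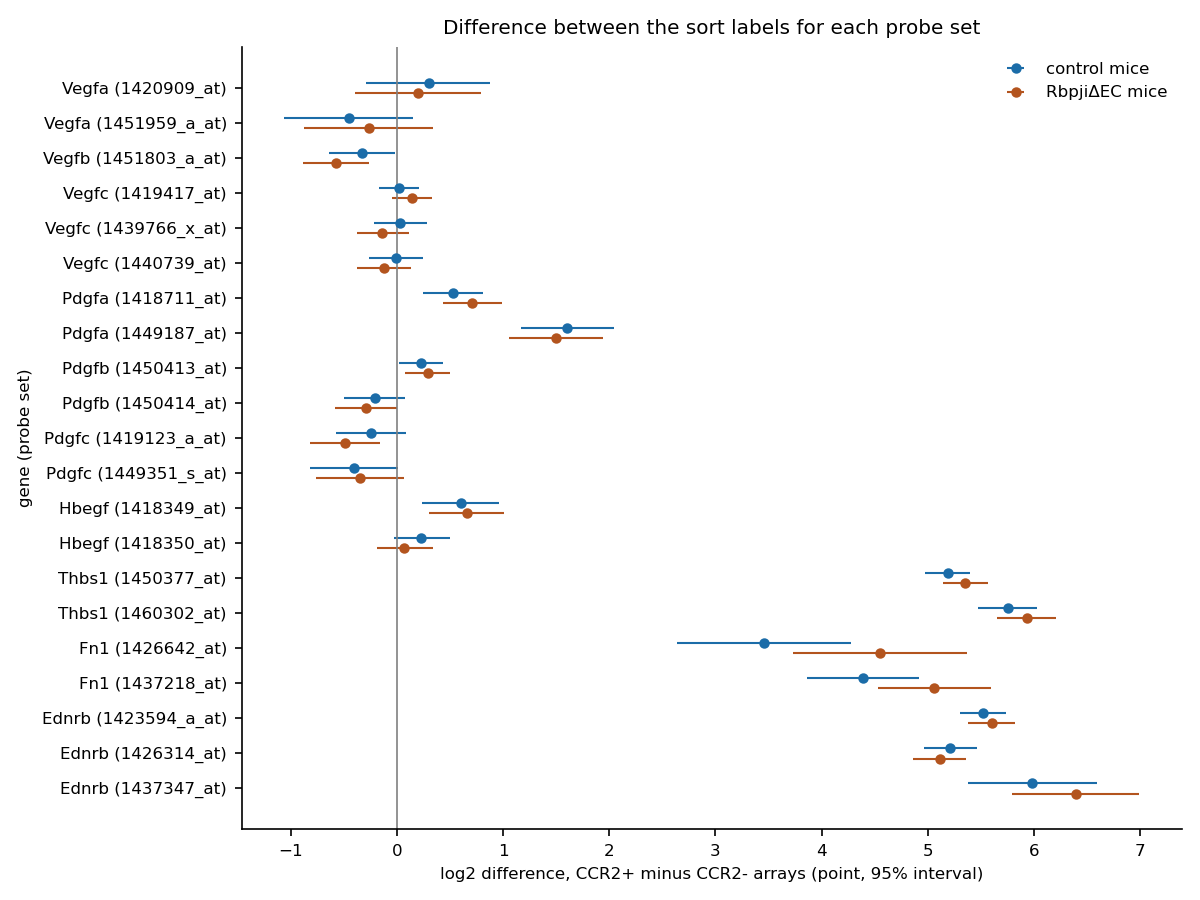
Log2 difference, CCR2+ minus CCR2- arrays, with its 95% interval for each of the 21 probe sets, in control mice (blue) and RbpjiΔEC mice (orange). The 7 probe sets of Thbs1, Fn1 and Ednrb lie above 3, both of Pdgfa lie above 0.5, and those of Vegfa and Pdgfb stand on both sides of 0.

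At probe set level 10 of 21 were higher and 0 lower in control mice, and 11 were higher and 2 lower in RbpjiΔEC mice. Of all 34958 probe sets, 7309 were higher and 7225 lower in control and 6589 and 7097 in RbpjiΔEC mice, which is 41.6% and 39.1% in either direction. Of the 21, 9 had at least 1 group mean no higher than the highest trp control and 2, both of Vegfc, had all 4. In the order of the group means of the standing probe sets, the 2 genotypes of a label were neighbours for all 10 genes. This was not counted over all genes, and it includes genes that did not pass between labels. For Vegfc the 4 means, 6.43 to 6.57, lay within the range of the trp controls, and 1 of its other probe sets broke the order. Within such a pair of neighbours the arrays overlapped for every gene, as 0 genes were free of overlap between genotypes.

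Genes that act with these factors were counted in 5 lists, to be read against the 40.8% of all genes that passed in control mice, 19.4% as higher and 21.4% as lower. Of 19 measured receptors of the factors, 9 were higher and 3 lower in the CCR2+ control arrays (median difference 0.04, against -0.03 over all genes). Lrp1, an endocytic receptor that takes up thrombospondin-1, averaged 12.23 ± 0.20 against 8.05 ± 0.36 (SD, n = 4 each), and Cd36, the receptor through which thrombospondin-1 restrains vessels, 12.26 ± 0.24 against 8.47 ± 0.31, with differences of 4.18 (SE 0.19) and 3.79 (SE 0.18). Nrp2, a coreceptor of VEGF-C, and Cd47, a thrombospondin-1 receptor, were lower by differences of -2.15 (SE 0.21) and -1.26 (SE 0.23, limma adjusted p = 0.000261), and Nrp1, a coreceptor of VEGF-A, was higher by 2.38 (SE 0.25). Of these receptors of thrombospondin-1, Lrp1 and Cd36 were thus higher and Cd47 lower.

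Of 24 measured matrix partners 12 were higher and 2 lower in control mice (median 0.37). Timp2, an inhibitor of matrix metalloproteinases, averaged 13.27 ± 0.19 against 10.23 ± 0.26 and differed by 3.04 (SE 0.15), and Tgfbi, a secreted matrix protein gene, by 2.34 (SE 0.45). Timp3, an inhibitor that also blocks VEGF binding to VEGFR2, was lower by a difference of -1.40 (SE 0.21), and Comp, a thrombospondin family gene, by -0.44 (SE 0.09) near the trp level. Of 20 other ligands 5 were higher and 3 lower (median -0.08): Hgf, an endothelial growth factor gene, differed by 3.38 (SE 0.30), Igf1 by 3.12 (SE 0.26), Adm, the vasodilator adrenomedullin, by -2.52 (SE 0.38) and Egf by -0.71 (SE 0.14).

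Of 15 genes of the hypoxia response 5 were higher and 5 lower (median -0.09), so the list did not move in 1 direction. Epas1, which encodes the oxygen-regulated transcription factor HIF-2α, averaged 12.25 ± 0.36 against 7.38 ± 0.21 and differed by 4.87 (SE 0.20), and Egln3, an oxygen sensor gene, by 4.08 (SE 0.21). Slc2a1, a glucose transporter gene, differed by -1.76 (SE 0.19) and Adm, which is in this list too, by -2.52. Of 13 genes of vessel-acting receptors and TIE2-type macrophages 2 were higher, Nrp1 and Stab1, a scavenger receptor gene (1.80, SE 0.27), and 3 lower, among them Sema4d, a semaphorin gene (-1.63, SE 0.20), and Plxnd1, a plexin that reads semaphorins on endothelial cells (-0.55, SE 0.15). All context genes named in these 3 paragraphs had every probe set on the same side of 0 in control mice.

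In RbpjiΔEC mice, where 18.1% of all genes passed as higher and 21.0% as lower (39.1% in all), 9 were higher and 5 lower of 19 receptors, 10 and 2 of 24 matrix partners, 5 and 3 of 20 other ligands, 6 and 6 of 15 hypoxia genes and 4 and 3 of 13 genes of the TIE2-type list. Lrp1 differed by 4.00, Cd36 by 3.94, Timp2 by 3.36, Epas1 by 4.68, Hgf by 3.88 and Nrp2 by -3.04. The matrix partner Tgfbi differed by 3.40 (SE 0.45). Angpt2, an antagonist of TIE2, was lower by a difference of -0.57 (SE 0.20, limma adjusted p = 0.0328), and by -0.71 (SE 0.20, adjusted p = 0.00971) in control mice.

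**Figure D3:**
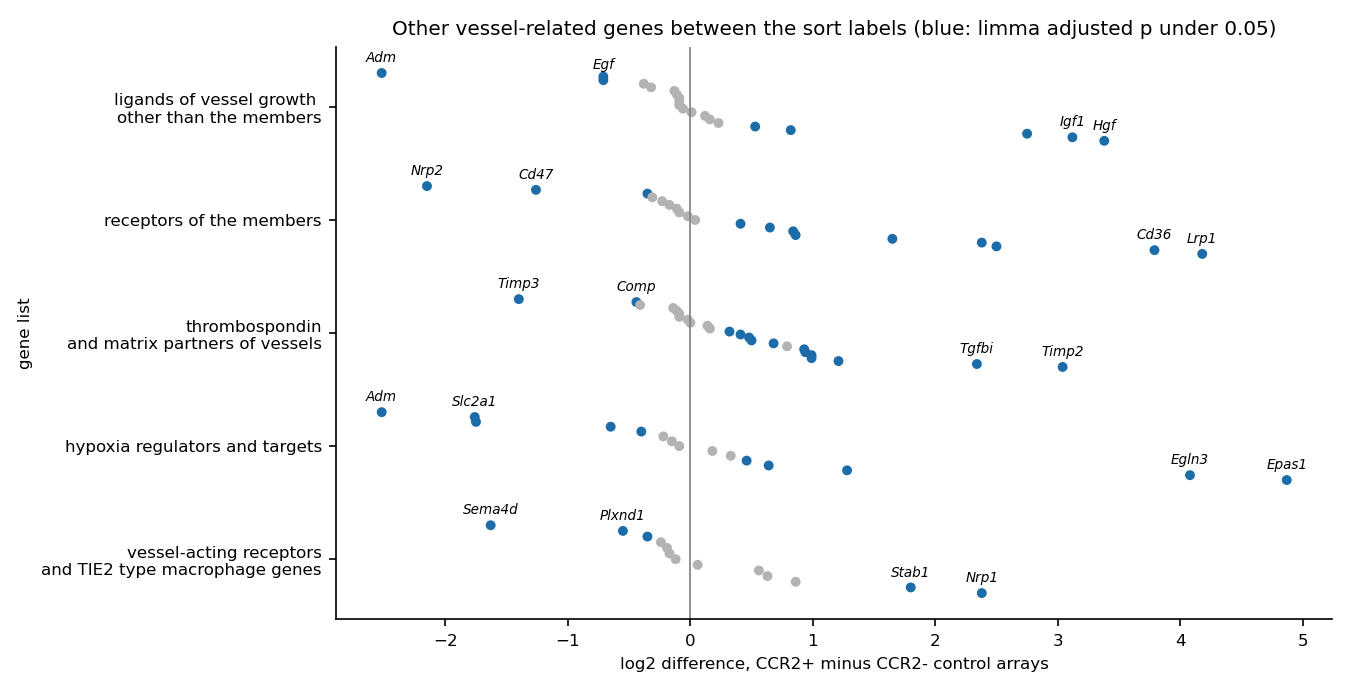
Log2 difference between the CCR2+ and CCR2- control arrays for each measured gene of the 5 lists, 1 point per gene, with genes of limma adjusted p under 0.05 in blue and the named ones labelled. Each list holds genes on both sides of 0, from Adm at -2.52 to Epas1 at 4.87.

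The genotype comparison asks whether loss of endothelial Rbpj altered these genes in the sorted cells. In neither label did any of the 10 genes pass. limma called 0 of 10 and 0 of 18194 genes (0%) in the CCR2+ arrays, the same in the CCR2- arrays and in the interaction of label and genotype. At an unadjusted p under 0.05 there were 0, 1 and 0 of the 10 genes, against 830, 390 and 555 of all genes. None of the 10 genes was free of overlap between genotypes, where 3.39% and 1.56% of all genes were. At probe set level limma called 2 of 34958 in the CCR2+ arrays, neither of them among the 21.

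In the CCR2+ arrays the differences of the standing probe sets, RbpjiΔEC minus control, lay within 0.18 of 0 for all 10 genes. Their median was 0.03, against -0.01 over all genes. The other probe sets ran from -0.21 (Pdgfb, the opposite sign to its standing one) to 0.26 (Fn1). The values that follow are those of the standing probe sets. Thbs1 differed by 0.11 (SE 0.10, 95% interval -0.11 to 0.33), Fn1 by 0.03 (-0.79 to 0.85) and Ednrb by 0.05 (-0.17 to 0.27). Vegfa differed by -0.05, with a wide interval of -0.65 to 0.55, Vegfb by -0.18 (-0.49 to 0.13) and Pdgfa by 0.02 (-0.26 to 0.30). Pdgfb differed by 0.12 (-0.09 to 0.32), Pdgfc by -0.18 (-0.59 to 0.24), Hbegf by -0.04 (-0.30 to 0.22) and Vegfc, near background, by 0.03. The interval was widest for Fn1 and next for Vegfa. For Fn1 this width comes from the spread shared by all 4 groups. Its SDs were 0.08 and 0.07 in the CCR2+ arrays (control and RbpjiΔEC) and 1.16 and 0.45 in the CCR2- arrays.

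In the CCR2- arrays Vegfa differed by -0.24 (95% interval -0.84 to 0.36), Vegfb by 0.06 (-0.25 to 0.37), Pdgfa by -0.16 (-0.44 to 0.12) and Pdgfb by 0.06 (-0.15 to 0.26). Pdgfc differed by -0.23 (-0.65 to 0.18), Hbegf by 0.12 (-0.14 to 0.38), Thbs1 by -0.06 (-0.27 to 0.16) and Ednrb by -0.02 (-0.24 to 0.20). Limma adjusted p was 1.00 for each of them. None of these intervals lies apart from 0.

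**Figure D4:**
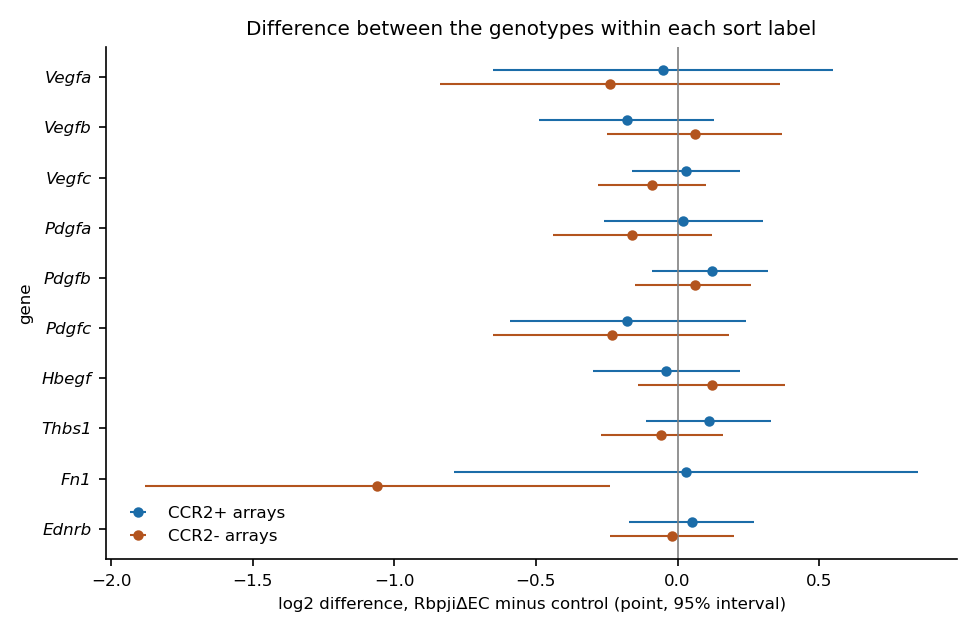
Log2 difference, RbpjiΔEC minus control, with its 95% interval for the 10 genes in the CCR2+ arrays (blue) and the CCR2- arrays (orange). All intervals hold 0 except that of Fn1 in the CCR2- arrays, -1.88 to -0.24, which does not pass after adjustment over all genes.

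Fn1 in the CCR2- arrays had the largest genotype difference of the 10 genes. With the array values given above, RbpjiΔEC averaged 9.12 ± 0.45 and control 10.18 ± 1.16 (SD, n = 4 each). The difference was -1.06 (SE 0.39), at an adjusted p of 1.00 and an unadjusted p of 0.0148 in limma. This SE and p rest on 1 spread shared by all 4 groups. The CCR2+ groups, with SDs of 0.08 (control) and 0.07 (RbpjiΔEC), narrow it, so neither value measures the spread of the CCR2- arrays alone. The groups overlapped, and CCR2- control 1, at 11.79, was the highest. Without it the difference was -0.52, and over all single arrays left out it ran from -1.42 to -0.52. The same array was highest of the 8 CCR2- arrays for the second Fn1 probe set (7.10, the others 6.02 to 6.66). It was also highest for Tgfbi (10.25) and Ccr2 (11.51). The 9 monocyte and small peritoneal macrophage genes, Ccr2 among them, averaged 10.03 in it against 8.52 to 9.40 in the other CCR2- arrays. Not all arrays followed this order. CCR2- RbpjiΔEC 1 had the highest Fn1 level of its group (9.73) but the lowest Tgfbi (7.95), Ccr2 (7.58) and list mean (8.52). CCR2- control 2 had a list mean of 9.40 and the lowest Fn1 level of its group (9.08). The part of monocytes and small peritoneal macrophages in the Fn1 level was not tested. The second probe set differed by -0.41 (SE 0.25, 95% interval -0.94 to 0.12), and the interaction of label and genotype for Fn1 was 1.09 (SE 0.55, limma adjusted p = 0.999, unadjusted p = 0.0638), while for the other 9 genes it lay between -0.24 and 0.19.

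**Figure D5:**
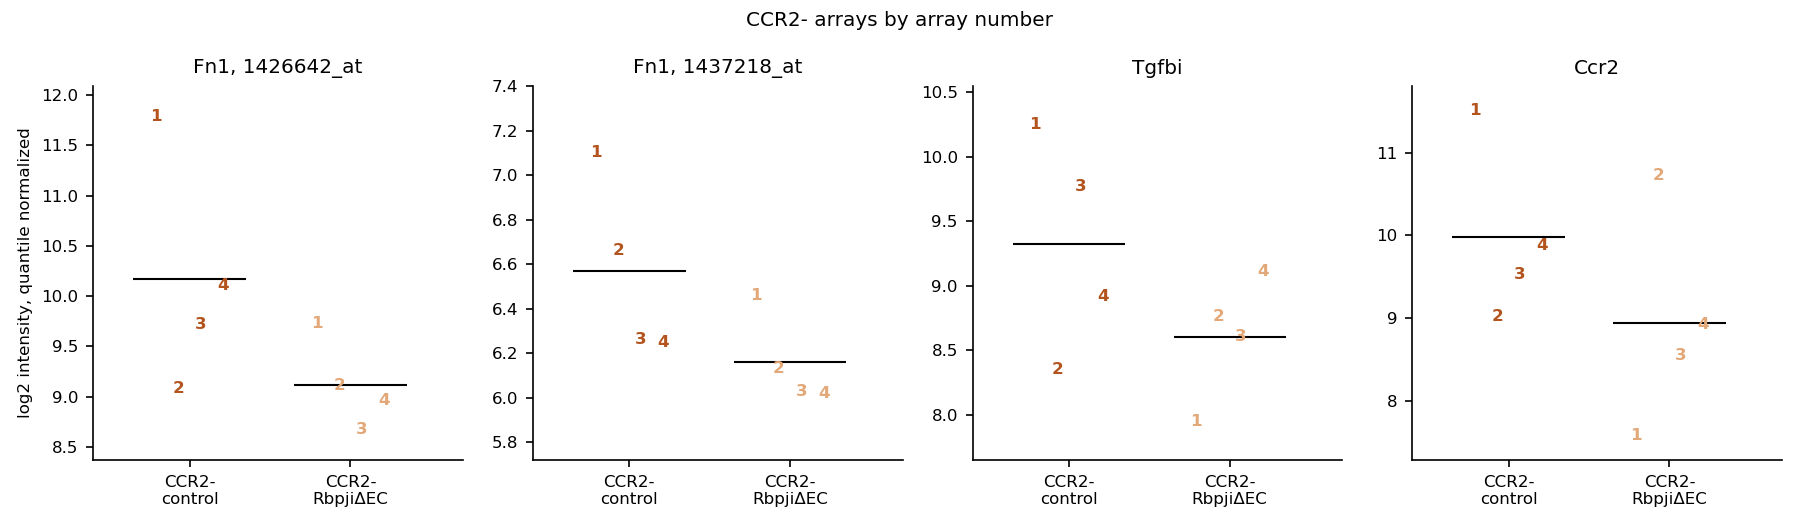
Level in log2 units of both Fn1 probe sets, Tgfbi and Ccr2 in the 8 CCR2- arrays, each drawn as its array number, with the group mean as a line and each panel on its own axis. Array 1 of the control group is highest in all 4 panels, at 11.79, 7.10, 10.25 and 11.51. Array 1 of the RbpjiΔEC group is the highest of its group for both Fn1 probe sets and the lowest for Tgfbi and Ccr2.

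No gene of the 5 lists passed between genotypes in either label or in the interaction. In the CCR2+ arrays the smallest p among the receptors was that of Nrp2, which read 8.22, 6.90, 7.53 and 7.42 in RbpjiΔEC and 8.44, 8.35, 8.63 and 8.59 in control arrays, without overlap. It differed by -0.99 (SE 0.21, limma adjusted p = 0.473), and its 4 probe sets ranged from -0.99 to 0.06. Fgf2, a growth factor of endothelial cells, differed by -0.56 (SE 0.14, adjusted p = 0.673), Mmp14, a membrane-bound matrix metalloproteinase gene, by -0.57 (adjusted p = 0.966), Slc2a1 by -0.36 and Sema4d by -0.42 (each adjusted p = 0.966). Other probe sets of Mmp14 and Sema4d reached 0.07 and 0.18, the opposite sign. In the CCR2- arrays the smallest p of each list belonged to Egf (-0.20), Pdgfrb (0.22), Vtn (-0.48), Car9 (-0.26) and Tie1 (0.17), with limma adjusted p of 1.00 for each, and the other Vtn probe set gave 0.33, the opposite sign. In the interaction they belonged to Nrp2 (-0.89), Fgf2 (-0.59), Mmp14 (-0.63), Ndrg1 (-0.29) and Sema4d (-0.63), each at adjusted p = 0.999.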

How the data were processed

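The values used are the probe set intensities that the authors deposited, on a linear scale, for 45101 probe sets of an Affymetrix mouse array on 16 arrays. How the authors computed or normalized these intensities is given in no source used here. In the CCR2- columns 100% of the deposited intensities became whole numbers when multiplied by some whole number of at most 22 (tolerance 0.001), against 2.58% to 2.91% in the CCR2+ columns. Values were taken to log2 and quantile normalized over the 16 arrays. Of the probe sets, 34958 carried 1 gene symbol, 932 several and 9211 none, and the latter 2 kinds were left out. The probe set with the highest mean stood for a gene, which gave 18194 genes, and all probe sets of the 10 genes were also tested singly.

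Tests used limma 3.58.1 under R 4.3.3 (two-sided, 1 mean per group over all 16 arrays, Benjamini-Hochberg adjustment over all genes, threshold 0.05) in 5 comparisons, after a test of the code on simulated data. For each gene, 1 spread shared by all 4 groups entered the SE, p and interval. No p was adjusted over the 10 genes alone. Errors are limma standard errors (SE) of differences and SDs of group means, and intervals are 95% intervals of the fit. No 2 columns were identical. With 4 arrays a group, precision is limited by their number. The 10 genes, the 5 context lists and the marker lists were chosen with earlier results of these data known. All 10 genes are named, and from each context list up to 2 genes per direction that passed with the largest difference, or else the gene with the smallest p. Angpt2 in RbpjiΔEC mice comes under the same rule. The Tgfbi values by array were added after they had been seen. Tables and promoter motifs were handled with Python 3.11.15 and pandas 2.3.3. There were 26 alternative settings: 16 that leave out 1 array each and 10 others.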

Additional observations from a re-analysis of the deposited data

Results flagged for a closer look

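In 8 of 84 groups of 4 arrays tested (21 probe sets in 4 groups), 1 array stood apart from the other 3 by more than Dixon's critical share of the range of the group. Chance flags about 1 group in 20. Vegfa accounted for 3 of the 8: its standing probe set read 7.44 in CCR2+ control 2 and 8.67 in CCR2- RbpjiΔEC 4, and its other probe set read 6.68 in CCR2- control 4. Thbs1 accounted for 2: 12.48 in CCR2+ control 4 for the standing probe set and 12.31 in CCR2+ RbpjiΔEC 2 for the other. The others were Fn1 at 12.0 (second probe set, CCR2+ RbpjiΔEC 1), Hbegf at 7.51 (CCR2+ control 1) and Pdgfb at 7.59 (CCR2+ RbpjiΔEC 4). Both Thbs1 values lie above every CCR2- array of the same probe set. The array at 11.79 for Fn1 in CCR2- control 1 was not among them, since the gap to its neighbour is a smaller share of that group's range.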

How the results depend on the processing

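Of 1245 values of the 10 genes under the alternatives, 1172 kept their direction and their side of the threshold, 55 changed sign, 10 came to pass the test and 8 no longer did. Thbs1, Fn1, Ednrb and Pdgfa passed between labels in both genotypes under all 25 alternatives that apply, with ranges in control and RbpjiΔEC mice of 5.15 to 5.48 and 5.31 to 5.80 for Thbs1, 3.09 to 4.00 and 4.40 to 5.03 for Fn1, 5.42 to 5.80 and 5.54 to 6.03 for Ednrb and 0.48 to 1.07 and 0.59 to 1.11 for Pdgfa. The number of genes lower in control mice (0) became 1 with only the 2 groups compared (Pdgfc, -0.40, limma adjusted p = 0.0473). In RbpjiΔEC mice (1 lower) it became 2 with median centring (Pdgfc, -0.53) and with array weights (Pdgfc, -0.51), and 0 with no further normalization. With 1 array left out, 0 to 1 genes were lower in control mice, and 4 to 5 were higher in each genotype. Pdgfb in RbpjiΔEC mice lost its call under 7 of 25 alternatives, with 0.27 under median centring and 0.00 with the mean of its probe sets, and Hbegf passed with the mean of its probe sets (0.42 in control and 0.36 in RbpjiΔEC mice). Vegfc, Pdgfc and Hbegf fall under the filter on dim genes.

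Sign changes, none of a difference that passed, were as follows. Between labels in control mice, Vegfc gave -0.13 with median centring, -0.07 with no further normalization and 0.00 to 0.06 with 1 array left out. Between labels in RbpjiΔEC mice, Vegfa gave 0.05 with no further normalization, Vegfc -0.07 with median centring and -0.04 with the mean of probe sets, and Hbegf -0.02 with median centring and -0.04 to 0.16 with 1 array left out. Between genotypes in the CCR2+ arrays, the mean of probe sets gave Vegfa 0.04, Vegfc -0.05, Pdgfa -0.03, Pdgfb -0.05 and Hbegf 0.04. Median centring gave Pdgfa -0.01, Fn1 -0.04 and Ednrb -0.01, array weights gave Pdgfa -0.02 and no further normalization gave Hbegf 0.00. With 1 array left out, Vegfa ran from -0.29 to 0.07, Vegfc from -0.02 to 0.07, Pdgfa from -0.08 to 0.09, Hbegf from -0.15 to 0.05 and Fn1 from -0.01 to 0.07. In the CCR2- arrays, no further normalization gave Vegfb -0.14, Pdgfb -0.13 and Hbegf -0.06, while the median of all genes moved to -0.16. There the mean of probe sets gave Vegfc 0.01 and Pdgfb -0.04, and with 1 array left out Vegfb ran from -0.02 to 0.13 and Ednrb from -0.12 to 0.04. In the interaction, the mean of probe sets gave Vegfc -0.06, Pdgfb -0.01 and Pdgfc -0.09, median centring gave Pdgfc -0.03 and Ednrb 0.00, array weights gave Pdgfc -0.02 and no further normalization gave Hbegf 0.06. With 1 array left out, Vegfa ran there from -0.05 to 0.46, Pdgfb from -0.02 to 0.13 and Pdgfc from -0.08 to 0.20. The cause of these changes was not tested.

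The array numbers are shared between groups, but same-numbered arrays did not all deviate together (r over genes of -0.032 to 0.403 between labels and -0.38 to 0.194 between genotypes). An array correlated best with its own number in 3 and 3 of 4 cases between labels and in 0 and 2 between genotypes. Whether CCR2+ and CCR2- arrays of 1 number came from the same mice is not stated. The main fit takes no pairs, and these values do not settle whether it should. With the number as a replicate block, 1 gene was lower in control mice (Vegfb, -0.33, limma adjusted p = 0.00923), 7663 and 7366 of all genes passed between labels against 7423 and 7107 without it, and 0 passed between genotypes. Under the other alternatives 0 to 2 of all genes passed between genotypes in the CCR2+ arrays, none of them among the 10. Signal near background limits what can be said of Vegfc, Pdgfc and Hbegf.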

Other observations

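The genes whose levels ran most closely with Vegfa over the 16 arrays, once each group mean was removed, were Gm38910 (Pearson r = 0.895), Usf1 (0.877), Polh (0.837), Olfr65 (0.836) and Klra1 (0.826). For Thbs1 they were Bmp4 (0.836), Slf2 (0.815), Xrn2 (0.808), Dgcr8 (0.794) and Bex1 (0.792). These are the highest 5 of 18194 genes for each, the points share arrays and their normalization, and they are given as a description without a p.

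The second Thbs1 probe set read 6.57 in each of the 4 CCR2- control arrays after quantile normalization, while its deposited intensities there were 73.2, 106, 149 and 88.9.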
